A study of Mus musculus with 10 samples.

Results

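Integrins and laminins join the cells of the vessel wall to the matrix around them, and their genes were followed here in ApoE-/- mice, in the part of the aorta that runs through the abdomen. The members were all genes with a single annotated symbol that names an integrin subunit or a laminin chain. There were 37 of them among 17991 genes measured, 27 for integrins and 10 for laminins, and they were read by 45 of the 36061 probes tested. A gene with more than 1 probe was represented by the brightest of them, judged by its average log2 value.

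An integrin is a pair of an alpha and a beta chain in the cell membrane. Outside the cell the pair holds a matrix protein or a partner on another cell, and inside it holds the actin skeleton through talin and kindlin. A laminin is a cross-shaped trimer of an alpha, a beta and a gamma chain, and it is the protein on which a basement membrane is built. In the aorta each smooth muscle cell lies in a basement membrane, the endothelium rests on another, and leukocytes in plaque carry integrins of their own.

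Each of 5 pools joined the aortas of 2 male mice aged 14 weeks. Every aorta was cut into its infrarenal section, which lies beyond the branches to the kidneys, and its suprarenal section, which lies before those branches. The pools were numbered 1, 6, 8, 11 and 12, which gave 5 infrarenal and 5 suprarenal arrays. All mice lacked apolipoprotein E, which clears lipoproteins from the blood, so that plasma cholesterol is high and atherosclerosis develops. No group carried a working Apoe gene, and each value is the mean of a mixture of 2 animals. Levels are given as log2 intensity, on a scale where 0 lies close to the median of an array, and a level is set only against the same probe on other arrays.

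The tissue label was checked on smooth muscle markers, of which 11 of 11 lay outside the dimmest 30% of probes. Their mean level was 6.04 to 6.31 in infrarenal and 5.93 to 6.32 in suprarenal aorta. Itga8, Itgb1 and Lamb2, the genes that head the integrin and laminin list, also lay outside the dimmest 30%, as did 31 of the 37 members. The arrays of pools 1 and 12 stood apart. When the regional differences of a pool were set against the average of the remaining pools over 13964 genes outside the dimmest 30%, Pearson's r was -0.431 for pool 12, -0.171 for pool 1 and 0.105 to 0.317 for the other 3, across genes, which are not independent replicates. Both arrays of pool 1 lay below the other 8 for 6.41% of all genes and above them for 4.23%. The corresponding shares in the other pools ran from 0.784% to 4.4%. For genes whose arrays are listed, and for others where a single pool carried much of the value, the regional difference is also given with a pool left out. Neighbouring tissue varied as well, with skeletal muscle markers at 1.63 to 3.94 in infrarenal and 0.93 to 4.64 in suprarenal aorta. Brown adipocyte markers lay at 2.97 to 5.45 in infrarenal and 2.77 to 5.54 in suprarenal aorta. Their lowest value was on the suprarenal array of pool 12, and 8 of 9 had a lower infrarenal mean. The part of fat in the members' values was not tested. In such bulk samples fewer cells of a type and less RNA per cell cannot be told apart.

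The first question was whether any of these genes differed between the aorta below and above the kidneys. With limma, in a fit with the pool as a block, 0 of the 37 members passed an adjusted p of 0.05, and the smallest adjusted p among them was 0.639. Of all probes 0.0% passed. At an unadjusted p under 0.05 there was 1 member, Itga10, or 2.7% of the members, beside 7.56% of all probes (3.05% higher and 4.51% lower in infrarenal aorta) and 8.55% of genes outside the dimmest 30%. Without pool 12 there were 3 members, Itga1, Itga10 and Lamb1, beside 10.9% of probes, and without pool 11 also 3, Itga4, Itga10 and Lama5, beside 6.08%. Without pool 1 there were 2, Itga10 and Itgb1, beside 8.18%. Infrarenal means were the lower ones for 23 of 37 members, a share of 62.2%, beside 60.4% of all genes, and for 18 of 37 after quantile normalization. The median difference, infrarenal minus suprarenal, was -0.04 log2 units over the members and -0.05 over all genes. Members with the same sign in all 5 pools numbered 1, or 2.7%, beside 9.15% of all genes, and for 0 of 37 members did the regions not overlap, beside 1.26% of all genes. The 95% interval of the difference had a median half-width of 0.33 log2 units. For 22 of the 37 it lay wholly within 0.5 log2 units of 0, which bounds the difference on the probe that stood for each gene. Itgb1 and Lama3 were among the 22, and their dimmer probes had intervals of 0.07 to 0.57 and 0.21 to 1.51.

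**Figure D1:**
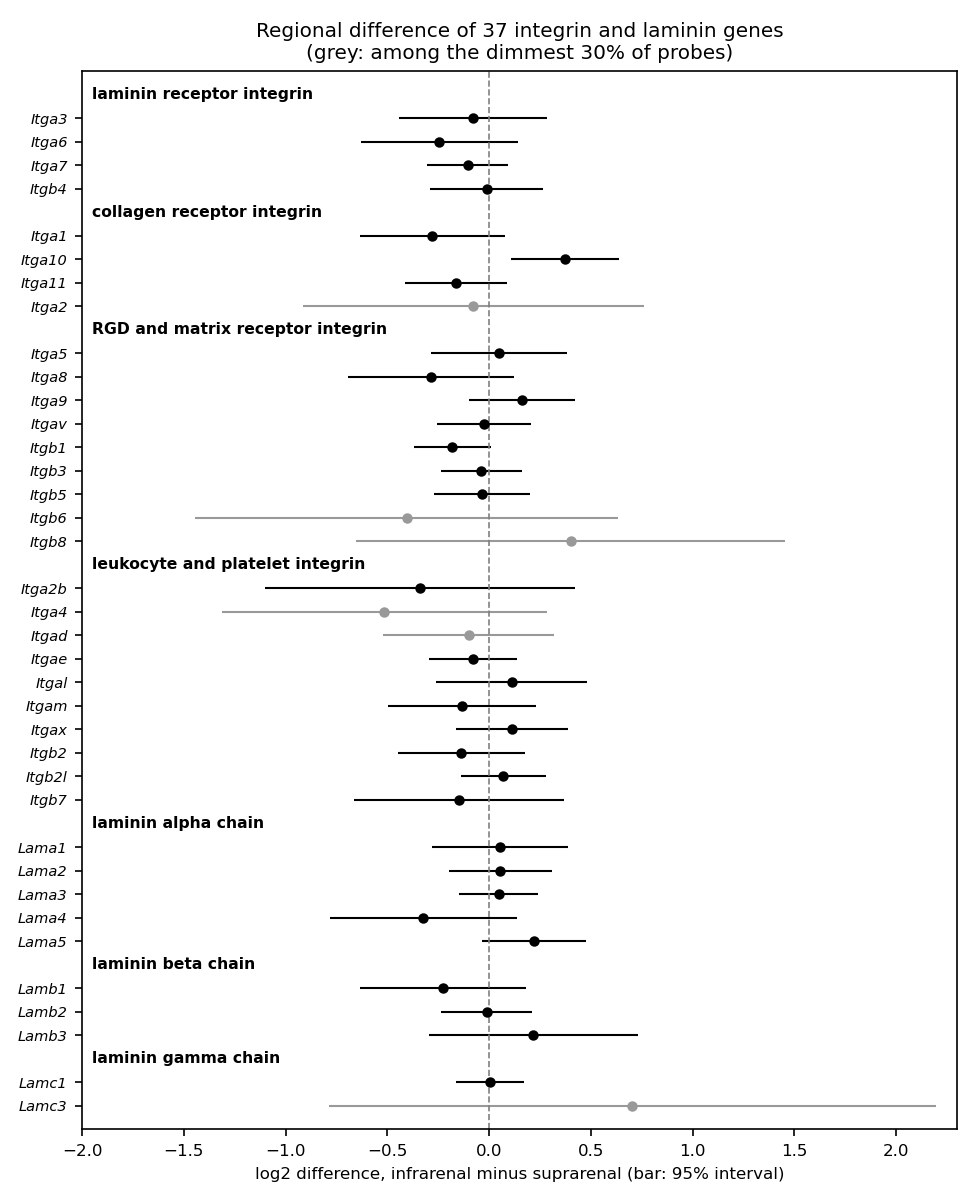
Log2 difference between infrarenal and suprarenal aorta (infrarenal minus suprarenal, horizontal axis) for 37 integrin and laminin genes, grouped by role, with points at the fitted difference and bars for its 95% interval over 5 pools. The interval of Itga10 lies above 0, from 0.11 to 0.64, and all others reach across 0, with the widest bars on genes among the dimmest 30% of probes (grey).

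Among the collagen receptors, Itga10, an alpha chain that binds collagen and is best known from cartilage, gave the smallest p of all members. Its level in infrarenal aorta was 1.26, 1.78, 1.78, 1.99 and 1.83 in pools 1, 6, 8, 11 and 12, against 1.06, 1.27, 1.13, 1.48 and 1.83 in suprarenal aorta of the same pools. Infrarenal arrays were the higher ones in 5 of 5 pools, by only 0.0016 in pool 12, and the ranges of the regions overlapped. The difference was 0.37 ± 0.12 log2 units (SE, n = 5 pools), with an adjusted p of 0.639 by limma. With each pool left out in turn it was 0.30 to 0.47, the highest without pool 12, with an adjusted p of 0.384. Itga1, the collagen receptor chain of smooth muscle and other mesenchymal cells, read 2.07, 1.87, 2.06, 1.65 and 1.92 in infrarenal aorta, against 2.39, 2.59, 2.27, 2.20 and 1.52 in suprarenal aorta. Infrarenal arrays were lower in 4 of 5 pools, and pool 12 went the other way by 0.40. The difference of -0.28 ± 0.15 (SE, n = 5 pools) did not pass (adjusted p = 0.652 by limma). It was -0.45 without pool 12, -0.17 without pool 6 and -0.30 to -0.21 without any other. Itga11, a receptor for fibrillar collagen on fibroblasts, differed by -0.16 and Itga2, which serves platelets and epithelia and was among the dimmest 30% here, by -0.08.

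Among the receptors for laminin, all 4 had a lower infrarenal mean and none passed. Itga7, the laminin receptor chain of skeletal, cardiac and smooth muscle, read 0.97, 1.63, 1.16, 1.55 and 1.58 in infrarenal aorta, against 0.96, 1.65, 1.34, 1.73 and 1.74 in suprarenal aorta. The difference was -0.11 ± 0.09 (SE, n = 5 pools; adjusted p = 0.722 by limma), smaller than the distance between pools, and ran from -0.13 to -0.09 with a pool left out. Itga6, which pairs with either of the laminin-binding beta chains, differed by -0.24 (-0.35 to -0.13 with a pool left out, the smallest without pool 6), and Itga3, a receptor for laminins of epithelial and vascular basement membranes, by -0.08. Itgb4, the beta chain of hemidesmosomes that Schwann cells and some endothelium also carry, differed by -0.01 and by 0.06 after quantile normalization.

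Receptors for fibronectin, vitronectin and other matrix proteins with the arginine-glycine-aspartate motif include Itga8, the partner of Itgb1 in a receptor that vascular smooth muscle expresses and that binds fibronectin, tenascin and nephronectin. Itga8 read 4.01, 4.70, 3.78, 4.34 and 3.94 in infrarenal aorta, against 3.86, 4.67, 4.73, 4.25 and 4.67 in suprarenal aorta. The regions were close in pools 1, 6 and 11, and infrarenal aorta was lower by 0.95 in pool 8 and by 0.73 in pool 12. Itga8 therefore differed by -0.28 ± 0.18 (SE, n = 5 pools; adjusted p = 0.665 by limma), by -0.17 without pool 12, by -0.12 without pool 8 and by -0.39 to -0.36 without any other. Among the other alpha chains of this group, Itga5, of the main fibronectin receptor, differed by 0.05, Itga9, a receptor for tenascin and osteopontin, by 0.16 (0.08 to 0.24 with a pool left out, the smallest without pool 6), and Itgav, of the vitronectin receptors, by -0.02. The beta chains Itgb3 and Itgb5, both partners of Itgav, differed by -0.04 and -0.03. These 3 signs turned after quantile normalization, to 0.09 for each of Itgav, Itgb3 and Itgb5. On the probes that stood for the genes, Itgb3 varied least of this group, with a range of 0.31 log2 units over the 10 arrays. The dimmer Itgb3 probe, annotated to the RefSeq mRNA, had a range of 1.23 and differed by -0.20. Itgb6 and Itgb8, the partners of Itgav that activate latent TGF-beta, were among the dimmest 30% and differed by -0.40 and 0.40, with standard errors of 0.45 and 0.46.

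Itgb1, the beta chain that most alpha chains of the vessel wall share, had 2 probes that did not move alike. The brighter probe, annotated to a RefSeq mRNA, read 4.77, 4.24, 4.37, 4.46 and 4.42 in infrarenal aorta, against 4.68, 4.55, 4.59, 4.68 and 4.65 in suprarenal aorta. Its infrarenal value was the lower of the pair in 4 of 5 pools. The difference was -0.18 ± 0.08 (SE, n = 5 pools; adjusted p = 0.639 by limma), and -0.25 to -0.15 with a pool left out. The dimmer probe, annotated to another GenBank record of the gene, read 1.74, 1.81, 1.67, 1.65 and 1.67 in infrarenal aorta, against 1.35, 1.37, 1.09, 1.48 and 1.65 in suprarenal aorta. It was higher in infrarenal aorta in 5 of 5 pools, by 0.32 ± 0.11 (SE, n = 5 pools; adjusted p = 0.639 by limma). The average of both probes differed by 0.07, so the sign for Itgb1 rests on the choice of probe.

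Of the 8 members with 2 probes, Itgb1, Itga9 and Lama1 had probes of opposite sign. The dimmer probe of Lama3, whose alpha chain belongs to the laminin of epithelial basement membranes, differed by 0.86 ± 0.28 (SE, n = 5 pools; adjusted p = 0.639 by limma), while the brighter probe differed by 0.05. That dimmer probe read -2.08, -2.06, -2.23, -1.61 and -1.81 in infrarenal aorta, against -2.91, -2.54, -4.05, -2.20 and -2.40 in suprarenal aorta, and it was among the dimmest 30% of probes. Its infrarenal values were higher in each of the 5 pools, and the ranges overlapped only through pool 11 of the suprarenal arrays. For Itgav, Itgb3 and Lama1 the probe annotated to the RefSeq mRNA was the dimmer one, and the probe that stood for the gene was annotated to other GenBank records.

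**Figure D2:**
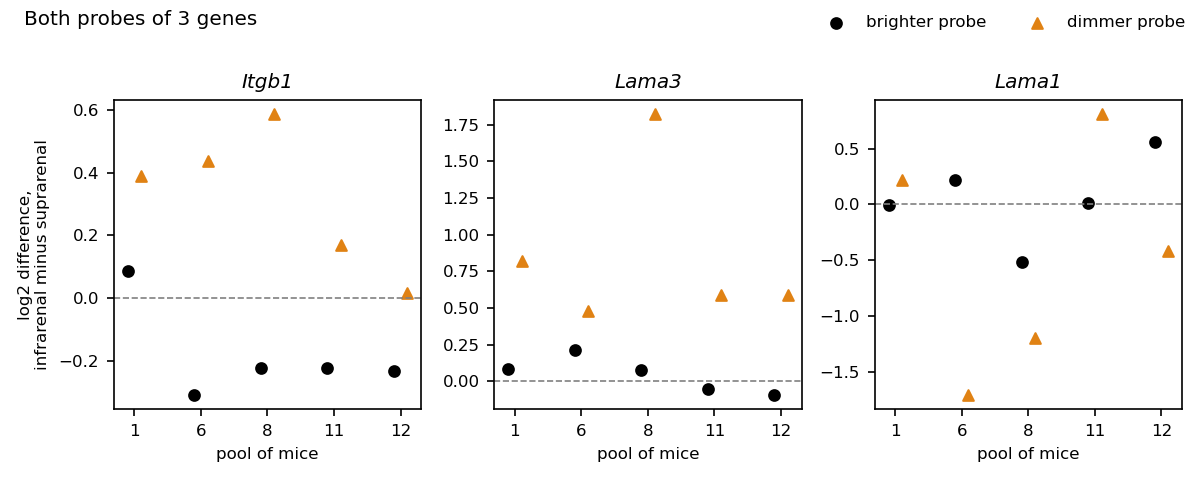
Log2 difference (infrarenal minus suprarenal, vertical axis) in each pool of mice (horizontal axis) for the brighter probe (black circles) and the dimmer probe (orange triangles) of Itgb1, Lama3 and Lama1. The dimmer Itgb1 probe lies above 0 in 5 of 5 pools while the brighter one lies below 0 in 4 of 5.

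None of the laminin chains passed the regional test, and the width of their intervals varied widely. Lamb2, the beta chain of mature vascular and neuromuscular basement membranes, read 3.56, 3.78, 3.77, 3.86 and 4.03 in infrarenal aorta, against 3.54, 3.59, 3.73, 4.25 and 3.95 in suprarenal aorta. The regions overlapped and the difference was -0.01 ± 0.10 (SE, n = 5 pools; adjusted p = 0.977 by limma), with a 95% interval from -0.24 to 0.21. After quantile normalization it was 0.08, and it ran from -0.06 to 0.08 with a pool left out. Lamc1, the gamma chain of most laminins, read 3.56, 3.91, 3.70, 4.02 and 3.996 in infrarenal aorta, against 3.42, 3.94, 3.75, 3.97 and 4.08 in suprarenal aorta. Its difference of 0.0048 ± 0.07 (SE, n = 5 pools; adjusted p = 0.988 by limma) had the narrowest interval of all members, from -0.16 to 0.17, and ran from -0.03 to 0.03 with a pool left out. Lamb1, the other common beta chain, differed by -0.23, by -0.38 without pool 12, by -0.10 without pool 6 and by -0.14 without pool 11.

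Lama5 and Lama4, the alpha chains of endothelial and vascular laminins, had differences of opposite sign. Lama5 read 3.86, 4.70, 4.43, 4.45 and 4.70 in infrarenal aorta, against 3.76, 4.15, 3.95, 4.57 and 4.61 in suprarenal aorta. Infrarenal values were higher in 4 of 5 pools, with a difference of 0.22 ± 0.11 (SE, n = 5 pools; adjusted p = 0.647 by limma). It was 0.14 without pool 6 and 0.16 to 0.30 without any other. Lama4 read -1.75, -0.71, -1.25, -0.51 and -1.19 in infrarenal aorta, against -1.37, -0.76, -0.54, -0.80 and -0.32 in suprarenal aorta. It was lower in infrarenal aorta in 3 of 5 pools, and the difference was -0.32 ± 0.20 (SE, n = 5 pools; adjusted p = 0.664 by limma). It was -0.19 without pool 12 and -0.48 to -0.23 without any other. Lama2, the alpha chain of muscle and nerve basement membranes, differed by 0.06, Lama1 by 0.05 (-0.07 to 0.20 with a pool left out) and the brighter Lama3 probe by 0.05. The epithelial beta chain gene Lamb3 differed by 0.22. Lamc3, the other gamma chain, lay at the floor of -5.17 on 3 of 10 arrays, and its difference of 0.70 had a standard error of 0.65.

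Leukocyte and platelet integrins also did not pass. Itgb2, the beta chain of all leukocytes, differed by -0.14, and by -0.02 without pool 12, -0.07 without pool 8 and -0.21 without pool 1. Its partners Itgam of macrophages and neutrophils, Itgax of dendritic cells and macrophages, Itgal of lymphocytes and Itgad differed by -0.13, 0.11, 0.11 and -0.10. The value for Itgam was -0.03 without pool 12, -0.07 without pool 8 and -0.23 without pool 1. Itga4, the alpha chain with which lymphocytes and monocytes hold VCAM, differed by -0.52 ± 0.35 (SE, n = 5 pools; adjusted p = 0.68 by limma), with its probe among the dimmest 30%. It was -0.17 without pool 12 and -0.81 without pool 11. Itgb7 and Itgae, which mark lymphocytes of epithelia, differed by -0.15 and -0.08, and Itgb2l by 0.07. Macrophage markers, of which 8 of 10 were measured and 7 of 8 had a lower infrarenal mean, lay at 3.68 to 3.89 in infrarenal and 3.88 to 4.33 in suprarenal aorta. Their median difference was -0.31, and none of them passed. At an unadjusted p under 0.05 by limma, 4 of the 8 were lower in infrarenal aorta, beside 4.51% of all probes. Lymphocyte markers, with 8 of 10 measured and 6 of 8 lower, lay at 0.13 to 0.71 in infrarenal and 0.22 to 0.87 in suprarenal aorta. Of all genes, 60.4% had a lower infrarenal mean. The part of either cell type in the integrin values was not tested.

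The second question was how far these genes followed the pool, that is, whether both arrays from the same mice were high or low together. The F test of the 5 pools in the same limma fit called 0 of 37 members after adjustment, beside 0.0139% of all probes, and the smallest adjusted p among members was 0.247, for Lama1. At an unadjusted p under 0.05 it gave 14 of 37 members, or 37.8%, beside 5.89% of all probes. All 14 lay outside the dimmest 30%, where they were 45.2% of 31 members, beside 7.94% of 14086 genes. Without pool 1 the count was 0 of 37, beside 3.14% of probes, and without pool 12 it was 12 of 37, beside 6.94%. The higher count with all arrays thus rests on pool 1, and no member passed the adjusted test with or without it.

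Both arrays of pool 1 lay below the other 8 arrays for 9 of 37 members, or 24.3%, beside 6.41% of all genes. Among the 31 outside the dimmest 30% they were 29.0%, beside 7.72% of such genes. These were Itga3, Itga5, Itga7, Itga9, Itga11, Lama4, Lama5, Lamb2 and Lamc1. Both arrays lay above the other 8 for Itga2b, Itgb1, Itgb2l and Lama1, or 10.8% of members, beside 4.23% of all genes, and among the 31 beside 4.37%. For Itgb1 this was by a very small margin, 4.6848 on the suprarenal array of pool 1 against 4.6842 on that of pool 11. The dimmer Itgb1 probe did not set pool 1 apart, at 1.74 and 1.35 in infrarenal and suprarenal aorta, against 1.65 to 1.81 and 1.09 to 1.65. The other pools had 4 cases of both arrays above or below the other 8. Pool 6 was above for Itgad (2.22% of all genes) and below for Itgb2l (4.4%), pool 11 was above for Itgav (1.42%) and pool 12 was below for Itgad (1.47%). Pool 8 was above or below for no member, beside 1.62% and 1.9% of all genes. Pool 11 was below (0.784%) and pool 12 above (1.73%) for none either. The median member differed by -0.15 log2 units between pool 1 and the mean of the other pools, while the median gene differed by 0.02.

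Of the genes lower in pool 1, Itga9 had the smallest p in the F test. It read 2.43, 3.32, 2.81, 3.24 and 3.32 in infrarenal aorta, against 2.05, 2.85, 2.88, 3.41 and 3.12 in suprarenal aorta, so that both arrays of pool 1 were lowest. The dimmer Itga9 probe did not set pool 1 apart in both regions, with -0.82 and -0.36 in infrarenal and suprarenal aorta, against -0.51 to 0.07 and -0.55 to -0.08. The F test of the pools gave an adjusted p of 0.416 by limma. Itga7 read 0.97 and 0.96 in infrarenal and suprarenal aorta of pool 1, against 1.16 to 1.63 and 1.34 to 1.74 in the other pools (adjusted p = 0.46 by limma). Lamc1 read 3.56 and 3.42 in pool 1, against 3.70 to 4.02 and 3.75 to 4.08 (adjusted p = 0.64 by limma). In all 3 genes both pool 1 arrays were the lowest of the 10.

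Lama1, the alpha chain of the laminin of early embryos and kidney tubules, went the other way. It read 3.37, 2.09, 1.60, 1.78 and 2.01 in infrarenal aorta, against 3.37, 1.87, 2.12, 1.77 and 1.45 in suprarenal aorta. Both arrays of pool 1 lay above all others, and the F test of the pools gave an adjusted p of 0.247 by limma. The probe that carries this value was annotated to a GenBank record other than the RefSeq mRNA. The probe for the RefSeq mRNA was among the dimmest 30%, and there pool 1 read -2.24 and -2.46 in infrarenal and suprarenal aorta, against -5.14 to -2.90 and -3.70 to -2.54. Pool 1 was therefore the highest pool on both Lama1 probes.

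**Figure D3:**
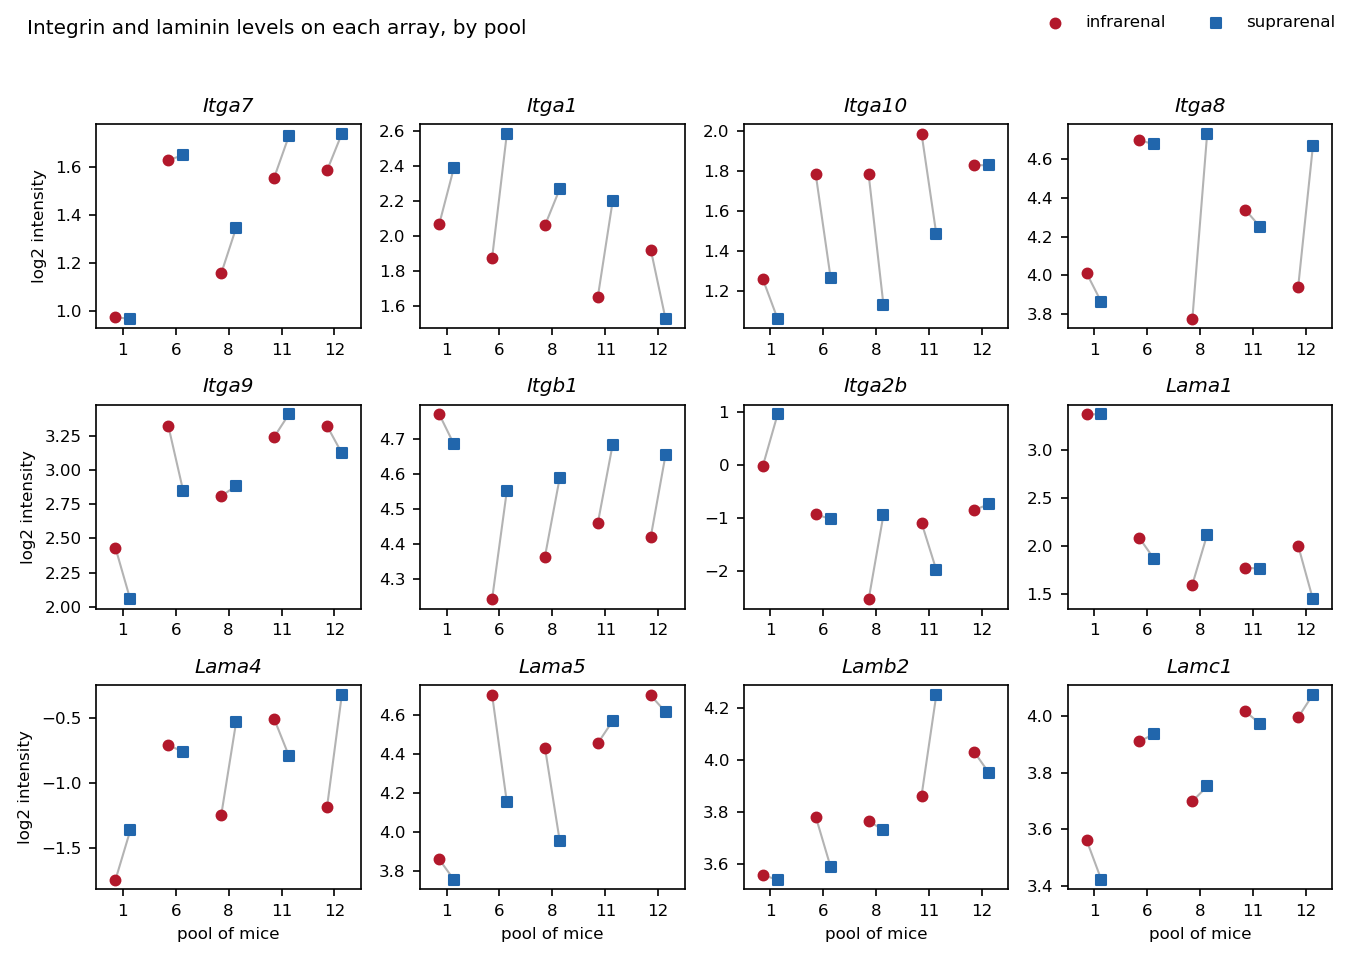
Log2 intensity (vertical axis) of 12 integrin and laminin genes in each pool of mice (horizontal axis), with infrarenal aorta as red circles, suprarenal aorta as blue squares and a grey line joining the arrays of a pool. In Itga7, Itga9, Lama4, Lama5, Lamb2 and Lamc1 both pool 1 arrays lie below the other 8, and in Itga2b, Lama1 and, only barely, Itgb1 above them.

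Itga2b, the alpha chain of the platelet fibrinogen receptor, had the largest spread of the members outside the dimmest 30%, with a range of 3.49 log2 units. It read -0.02, -0.93, -2.54, -1.09 and -0.85 in infrarenal aorta, against 0.95, -1.02, -0.95, -1.99 and -0.74 in suprarenal aorta. The highest values were those of pool 1, in both regions. Platelet markers, with 6 of 8 measured and none among the dimmest 30%, lay at 2.10 and 2.68 on the infrarenal and suprarenal arrays of pool 1, against 0.95 to 1.76 and 0.74 to 1.72 on those of the other pools. In 4 of the 6 both pool 1 arrays were above the other 8. Among them Gp9, a subunit of the platelet receptor for von Willebrand factor, read 2.16 and 3.19 in pool 1, against -0.36 to 1.20 and -1.32 to 1.03. Pf4, the platelet chemokine, read 5.41 and 5.71 in pool 1, against 5.34 to 5.75 and 5.61 to 5.83, and did not stand apart. The part of platelets in the Itga2b values was not tested.

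The regional difference of Itga2b was -0.34 ± 0.33 (SE, n = 5 pools; adjusted p = 0.762 by limma). It was -0.03 without pool 8, -0.18 without pool 1 and -0.65 without pool 11. Among the arrays outside pool 1, Itga2b read highest, at -0.74, where platelet markers were at 1.72. Its lowest value there, -2.54, came with platelet markers at 1.33. It read -0.85 and -1.02 where they were at 0.95 and 0.74. Skeletal muscle markers are given beside Itga7, and their part in its values was not tested. They spanned 0.93 to 4.64, with the lowest value on the suprarenal array of pool 6 and the highest on that of pool 12, and Itga7 read 1.65 and 1.74 on these arrays. The lowest Itga7 values, on the arrays of pool 1, came with muscle marker levels of 1.63 and 3.12. The amount of RNA amplified was 0.44 µg and 0.54 µg for the infrarenal and suprarenal arrays of pool 1, and 0.34 to 0.51 µg and 0.35 to 0.47 µg for the others. With it as a covariate, the F test of the pools gave 11 of 37 members at an unadjusted p under 0.05, beside 6.43% of all probes.

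**Figure D4:**
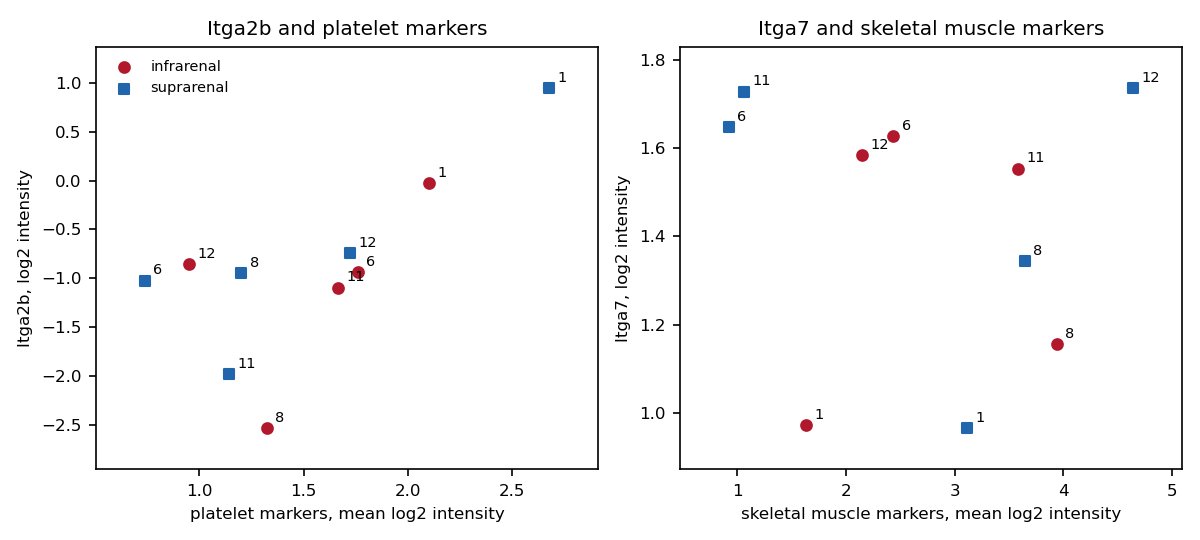
Log2 intensity of Itga2b against the mean log2 intensity of platelet markers (left), and of Itga7 against that of skeletal muscle markers (right), on 10 arrays, with infrarenal arrays as red circles, suprarenal arrays as blue squares and pool numbers beside the points. The pool 1 arrays lie highest on both axes of the left panel and lowest for Itga7 on the right.

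**Figure D5:**
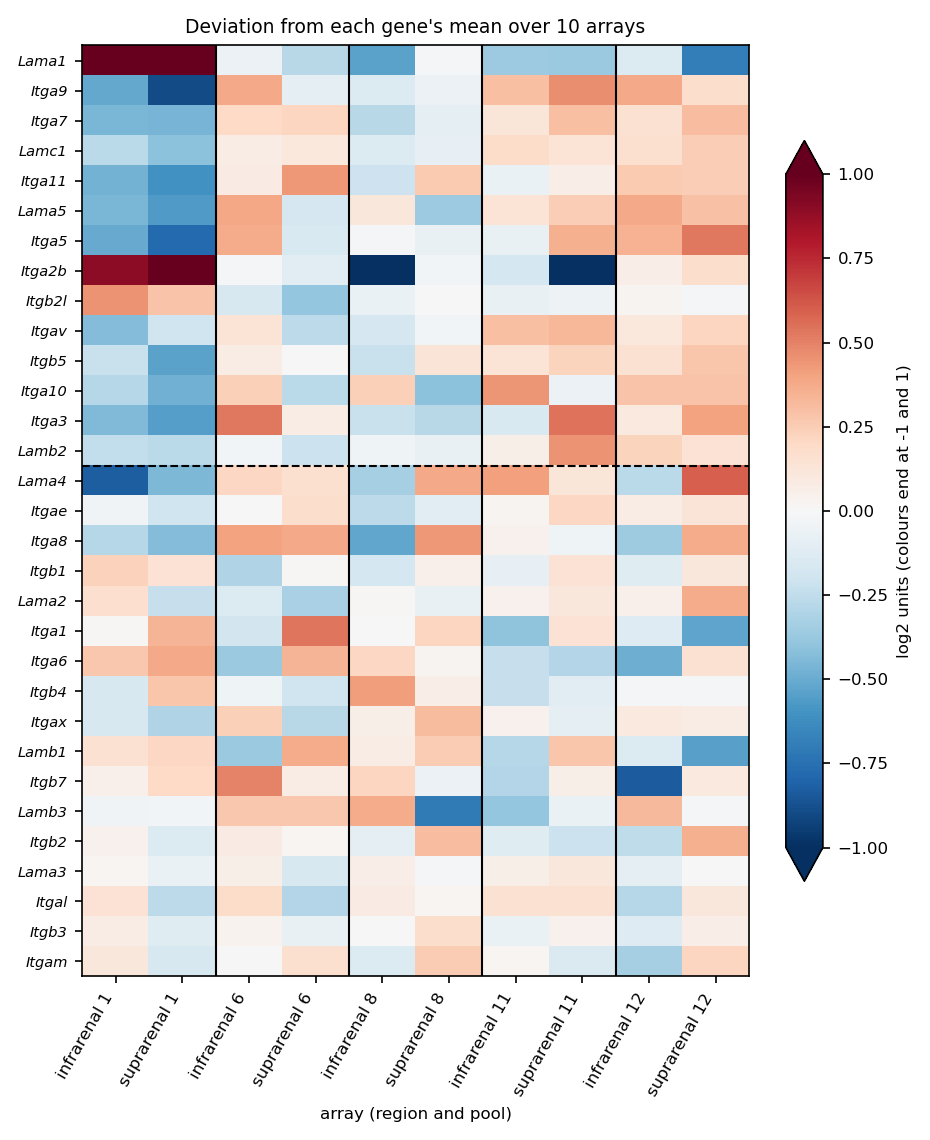
Deviation of each array (columns, by pool and region) from the mean of the gene over 10 arrays, in log2 units, for the 31 members outside the dimmest 30% of probes (rows, ordered by the p of the F test of the pools, with the 14 under 0.05 above the dashed line). The leftmost pair of columns, pool 1, is blue for most of the upper rows and red for Lama1, Itga2b and Itgb2l.

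The stretches before the start sites of 4 members, none of which passed the adjusted F test of the pools, are shown to let their makeup be compared. They are those of smallest unadjusted p in the F test of the pools among members with a single start in the RefSeq promoter table, which held 24 of the 37 genes. The 250 bases upstream of the start are given 5′ to 3′ on the coding strand, in build GRCm38.p6, with GC boxes (GGGCGG, on either strand) in capitals. Itga9 lies at chr9:118711442-118711691 (+), Itga11 at chr9:62677605-62677854 (+), Lama5 at chr2:180225860-180226109 (-) and Itga5 at chr15:103366792-103367041 (-).
Itga9: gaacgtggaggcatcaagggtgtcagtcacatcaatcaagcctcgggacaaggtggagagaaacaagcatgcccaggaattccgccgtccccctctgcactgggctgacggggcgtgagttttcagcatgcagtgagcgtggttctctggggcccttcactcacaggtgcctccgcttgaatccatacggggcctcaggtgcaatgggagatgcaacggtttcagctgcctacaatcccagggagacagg
Itga11: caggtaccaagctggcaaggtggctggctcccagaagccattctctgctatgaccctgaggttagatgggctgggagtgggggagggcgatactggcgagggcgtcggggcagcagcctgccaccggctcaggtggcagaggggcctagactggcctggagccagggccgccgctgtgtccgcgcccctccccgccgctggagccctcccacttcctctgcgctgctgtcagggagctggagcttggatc
Lama5: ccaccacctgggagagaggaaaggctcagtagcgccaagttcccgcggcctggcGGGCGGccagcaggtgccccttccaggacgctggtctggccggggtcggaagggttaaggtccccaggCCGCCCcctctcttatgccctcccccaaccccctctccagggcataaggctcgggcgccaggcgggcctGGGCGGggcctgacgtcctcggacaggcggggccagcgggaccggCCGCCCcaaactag
Itga5: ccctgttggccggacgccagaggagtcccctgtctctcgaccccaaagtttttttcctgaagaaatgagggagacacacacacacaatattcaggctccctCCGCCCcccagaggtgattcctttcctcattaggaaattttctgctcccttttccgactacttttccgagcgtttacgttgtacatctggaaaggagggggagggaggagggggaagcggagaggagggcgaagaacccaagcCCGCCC
Itga9 and Itga11 held 0 GC boxes, Lama5 held 4 and Itga5 held 2. Over all 32851 such stretches 32.7% held a GC box, beside 9 of 27 stretches of members, or 33.3%. An E-box (CANNTG, on both strands) was in 66.2% of all and in 22 of 27 stretches of members, the 4 shown included. A TATA box (TATAAA, on either strand) was in 12.4% of all and in 0 of 27. The CArG box, to which serum response factor binds, was in 1.47% of all, in 2 of 27 stretches of members and in none of those shown. The G and C content was 58.4% for Itga9, 68.4% for Itga11, 72.4% for Lama5 and 55.6% for Itga5, beside a median of 52.4% over all stretches. These letters describe the stretches and say nothing of what binds there.

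The genes that work with integrins and laminins were read from 3 further lists. None of their members passed either test after adjustment. Of 18 basement membrane partners, 9 had a lower and 9 a higher infrarenal mean, with a median difference of -0.03. Dag1, which encodes the laminin receptor dystroglycan, differed by -0.44 ± 0.12, Col4a4, a chain of collagen IV, by 0.25 ± 0.10 and Nid2, a nidogen that links laminin to collagen IV, by -0.23 ± 0.15 (SE, n = 5 pools; adjusted p = 0.639, 0.639 and 0.675 by limma). Dag1 read -0.90, 0.23, -0.92, -0.63 and -0.49 in infrarenal aorta, against -0.29, 0.37, -0.55, -0.08 and 0.02 in suprarenal aorta. It was lower in infrarenal aorta in each pool, and the ranges of the regions overlapped.

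In the F test of the pools, 7 of the 18 partners had an unadjusted p under 0.05, beside 5.89% of all probes. For 7 both pool 1 arrays were below the other 8, beside 6.41% of all genes. All 18 lay outside the dimmest 30%, where the shares were 7.94% and 7.72% of genes. Hspg2, which encodes perlecan, read 2.52 and 2.64 in infrarenal and suprarenal aorta of pool 1, against 2.70 to 3.56 and 3.23 to 3.48 in the others. Col18a1, a collagen of vascular basement membranes, read 5.34 and 5.22, against 5.72 to 6.38 and 5.66 to 6.27. The mean level of the list was 2.77 and 2.68 in pool 1, against 2.85 to 3.14 and 2.94 to 3.34. These genes were lowest in the same pool as the 9 members above.

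Of 18 integrin ligands measured, 9 were lower and 9 higher in infrarenal aorta, with a median of -0.01. Fn1, fibronectin itself, differed by 0.27 ± 0.10, Tgfb1, whose latent form binds Itgav integrins, by -0.17 ± 0.07 and Fgb, a fibrinogen chain, by -0.35 ± 0.20 (SE, n = 5 pools; adjusted p = 0.639, 0.639 and 0.653 by limma). Of 28 genes of the adhesion machinery, 15 were lower and 13 higher, with a median of -0.01. Fyn, a kinase at adhesion sites, differed by -0.55 ± 0.14, Itgb1bp1, which binds the tail of the Itgb1 chain, by -0.17 ± 0.07 and Parvb, an actin-binding partner of integrin-linked kinase, by -0.26 ± 0.12 (SE, n = 5 pools; adjusted p = 0.639 for each by limma). Both pool 1 arrays were below the other 8 for 9 of these 28 genes and for 3 of the 18 ligands, beside the same 6.41% of all genes. In the F test of the pools, 2 of the 28 and 6 of the 18 had an unadjusted p under 0.05, beside 5.89% of all probes. All 28 and 13 of the 18 lay outside the dimmest 30%. There the shares were 7.72% of genes for pool 1 below the others and 7.94% for the F test. After quantile normalization the medians were 0.08 for basement membrane partners, -0.02 for ligands and 0.06 for adhesion machinery.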

How the data were processed

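RNA from 10 pooled samples of aorta was hybridised to 1 array each. Per the labels' protocols, 0.34 to 0.54 µg of RNA was amplified to biotin-labelled cRNA. The authors deposited linear intensity values, which have medians of 1.001 to 1.003 on every array. How they were scanned, background-corrected and scaled is not given in the sources used. Intensities under 0.0278 (percentile 1 of positive values) were raised to it before log2 was taken, which touched 5328 values. Missing values numbered 1968, and 0 of them were on the members' probes that stood for a gene. A probe needed 3 values per region, which kept 36061 of 36227 probes.

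Symbols were taken from the platform's annotation and brought up to date by Entrez identifier with RefSeq's table for GRCm38.p6 (1 symbol for 21615 probes, several for 681, none for 13931). Promoter stretches are RefSeq's, of the same build.

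The test came from limma 3.58.1, run under R 4.3.3, in a moderated linear model with region and pool as terms and a variance trend, and the pools were tested by an F test in that fit. Benjamini-Hochberg adjustment covered every probe tested, and 0.05 was the threshold. The study's design text says that each group of mice gave both sections and that their ratio was taken within the group. Which arrays belong together was read from the number in their titles (IRA_1 with SRA_1, and so on). As a check, same-numbered arrays were compared by the correlation of what remained after subtracting each region's mean, which was 0.045, 0.0062, -0.033, -0.053 and -0.092 for pools 1, 6, 8, 11 and 12. These values lie near 0, so the check did not show same-numbered arrays to be alike over all probes. The match of arrays rests on the titles alone.

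Members, lists and the rule for named genes were chosen with earlier results of these data known. By that rule, all array values are given for Itga8, Itgb1, Lamb2, the 6 members of smallest p by region, any at an unadjusted p under 0.05 there, the 4 of smallest p between pools and the 2 of largest SD outside the dimmest 30% of probes. Of each partner list, the 3 genes of smallest p by region are named. Dag1's array values, Hspg2, Col18a1, Gp9, Pf4 and the second probes were chosen after their values were seen. The number of arrays limits the precision. In the regional test, p-values are set against the spread of the regional difference between these pools. In the F test, they are set against the spread within pools left after the region. In both, limma moderates that spread towards a trend over all probes. The standard errors and intervals given are these moderated ones, and not those of a gene's pool differences alone. Alternatives were quantile normalization, an offset, leaving out dim probes, averaged probes, weighted arrays, the amount of RNA as covariate, a fit without variance trend, no pool block and each pool left out.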

Additional observations from a re-analysis of the deposited data

Results flagged for a closer look

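Each of 37 genes was looked at in both regions, which made 74 sets of 5 arrays. In 5 sets a single array lay well away from the rest, where about 3.7 such sets would be expected by chance. In infrarenal aorta, the pool 1 array stood apart low for Itga10, at 1.26 against 1.78 to 1.99, and high for Lama1, at 3.37 against 1.60 to 2.09. Both belong to the pool that stands apart for other members too. The infrarenal array of pool 11 was low for Itga2, at -3.48 against -2.56 to -2.20, on a probe among the dimmest 30%. The infrarenal array of pool 12 was low for Itgal, at -0.95 against -0.58 to -0.48. The suprarenal array of pool 12 was low for Lamb1, the beta chain of many laminins, at -0.70 against 0.05 to 0.22. Brown adipocyte markers were also low on that array, at 2.77 against 4.94 to 5.54 on the other suprarenal arrays. Their part in the Lamb1 values was not tested. With pool 12 left out the regional difference of Lamb1 was -0.38, in place of -0.23.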

How the results depend on the processing

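No member passed the adjusted test by region or by pool under any of the alternatives run, and the smallest adjusted p by region among them was 0.384. Over all probes, the regional test called 0, also with no replicate block, and 1 after quantile normalization. The F test of the pools called 5 probes, 0 with no variance trend, 2 with RNA input as a covariate and 1 to 4 with a pool left out. The causes were not tested. Members at an unadjusted p under 0.05 between pools numbered 14, 9 with no variance trend and 0 to 13 with a pool left out, the 0 without pool 1. With no replicate block no call changed. Without the block the members' differences were the same, since every pool has both regions. Of 475 repeats of a member's regional difference, 27 had the other sign, and 23 of the 37 members kept their sign in every alternative run for them. After quantile normalization Itgb4 differed by 0.063, Itgav by 0.091, Itgb3 by 0.086, Itgb5 by 0.093 and Lamb2 by 0.084. With RNA input as a covariate Itgb4 differed by 0.0029, Lamb2 by 0.0038 and Lamc1 by -0.0041. With probes averaged Itgb1 differed by 0.069 and Lama1 by -0.20. With each pool left out in turn, differences ran from -0.21 to 0.075 for Itga3, from -0.10 to 0.093 for Itgb4, from -0.24 to 0.27 for Itga2, from -0.070 to 0.17 for Itga5, from -0.13 to 0.028 for Itgav, from -0.095 to 0.0028 for Itgb3, from -0.12 to 0.045 for Itgb5, from -0.80 to 0.0023 for Itgb6, from -0.29 to 0.047 for Itgb7, from -0.073 to 0.20 for Lama1, from -0.029 to 0.15 for Lama2, from -0.064 to 0.082 for Lamb2 and from -0.029 to 0.026 for Lamc1. The median difference of the members was 0.06 after quantile normalization, and lay between -0.12 and -0.0074 with a pool left out. Signal over background was not given, so the 6 members among the dimmest 30% are the least certain.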
